A study of Equus caballus with 40 samples.

Results

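The genes described here are the 4 inhibitor of DNA binding genes ID1, ID2, ID3 and ID4 and the SMAD genes SMAD6, SMAD7 and SMAD9, measured in chondrocyte pellets from horse cartilage. They were chosen by symbol in the array's platform annotation, which lists 1 probe set for each, and they are 7 of the 16661 genes that could be named. Bone morphogenetic proteins (BMPs) and their relative TGF-β bind paired receptor kinases at the cell surface, which phosphorylate receptor-regulated SMAD proteins. These join SMAD4, enter the nucleus and switch on target genes, and ID1, ID2 and ID3 are among the classical early targets of the BMP branch in mammalian cells. ID proteins lack a DNA-binding region and tie up basic helix-loop-helix (bHLH) transcription factors, which keeps many cell types from differentiating. SMAD6 and SMAD7 are the inhibitory SMADs, themselves targets of the pathway, and they act as its negative feedback: SMAD6 mainly on the BMP branch, SMAD7 on both branches. SMAD9, also called SMAD8, is not an inhibitory SMAD by its usual definition. It is a receptor-regulated SMAD of the BMP branch with weak activity of its own. In cartilage BMP signalling supports chondrocyte differentiation and matrix production.

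The study addressed what autologous blood products do to inflamed cartilage cells. Chondrocytes were grown as 3-dimensional pellets and pre-stimulated for 48 h with the inflammatory cytokine interleukin-1β (IL-1β; recombinant equine protein at 5 ng/ml). They then stayed in IL-1β without serum or had 1 of 3 products added to it: autologous equine serum (AES), a variant that the labels call AES24h, and autologous conditioned serum (ACS). Control pellets never had IL-1β, so all serum groups carry the cytokine and no group had serum without it. Pellets were harvested 2 h or 48 h after the treatments began, which gave 10 groups of 4 arrays, 40 in all, each hybridised to the Equine Gene 1.0 ST whole-transcript array. The labels explain neither AES24h nor the serum doses, and nothing in them tells if the 4 arrays of a group are separate cultures or animals. The p-values thus rest on the spread among these arrays alone, and part or all of it may be technical. Values are log2 expression levels, so a difference of 1 is a doubling, and levels of different probe sets are not compared.

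The arrays were alike in distribution, with medians between 4.35 and 4.59 on the log2 scale, and replicates of a group correlated at 0.962 to 0.984 over the 30559 probe sets. As a check of the labels, IL-1β raised the collagenase genes MMP1 by 8.46 at 2 h and MMP13 by 4.69 at 48 h (log2 differences, adjusted p = 5.42e-15 and 1.59e-07). Of 10 chondrocyte marker genes, 7 fell with IL-1β at 48 h, and the cartilage collagen gene COL2A1 was lower by 2.53 (log2 difference -2.53, adjusted p = 0.00174). In that comparison 1.26% of all probe sets were called. Of 6 leukocyte markers, 5 had group means below the median of every array in the IL-1β and AES groups at 48 h. Their summed log2 level at 48 h was 6.16 to 6.30 in control, 6.02 to 6.62 with IL-1β, 6.52 to 6.65 with AES, 6.35 to 6.48 with AES24h and 6.33 to 6.44 with ACS, so every serum array lay above every control array. At 2 h it was 6.31 to 6.37 in control, 6.41 to 6.58 with IL-1β, at least 6.62 with AES, 6.54 to 6.66 with AES24h and 6.62 to 6.72 with ACS. The part of these markers in the results was not tested. In RNA from whole pellets, fewer cells of a type and less RNA per cell cannot be told apart.

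ID1, ID2, ID3, SMAD6, SMAD7 and SMAD9 lay above their array's median in all 40 arrays. ID4 did not: it ranged from 3.85 to 5.28 and was below the array median in 16 of 40 arrays, so the data do not place it above background. Over the 10 group means, ID3 varied most, from 6.35 to 7.87, and SMAD9 least, from 6.08 to 6.37. The control group at 48 h had the lowest mean of all 10 groups for ID1, ID2, ID3, SMAD7 and SMAD9. When the 10 groups were put in order of their means, every pair of neighbours overlapped in range for every gene, so the order is only a description.

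**Figure D1:**
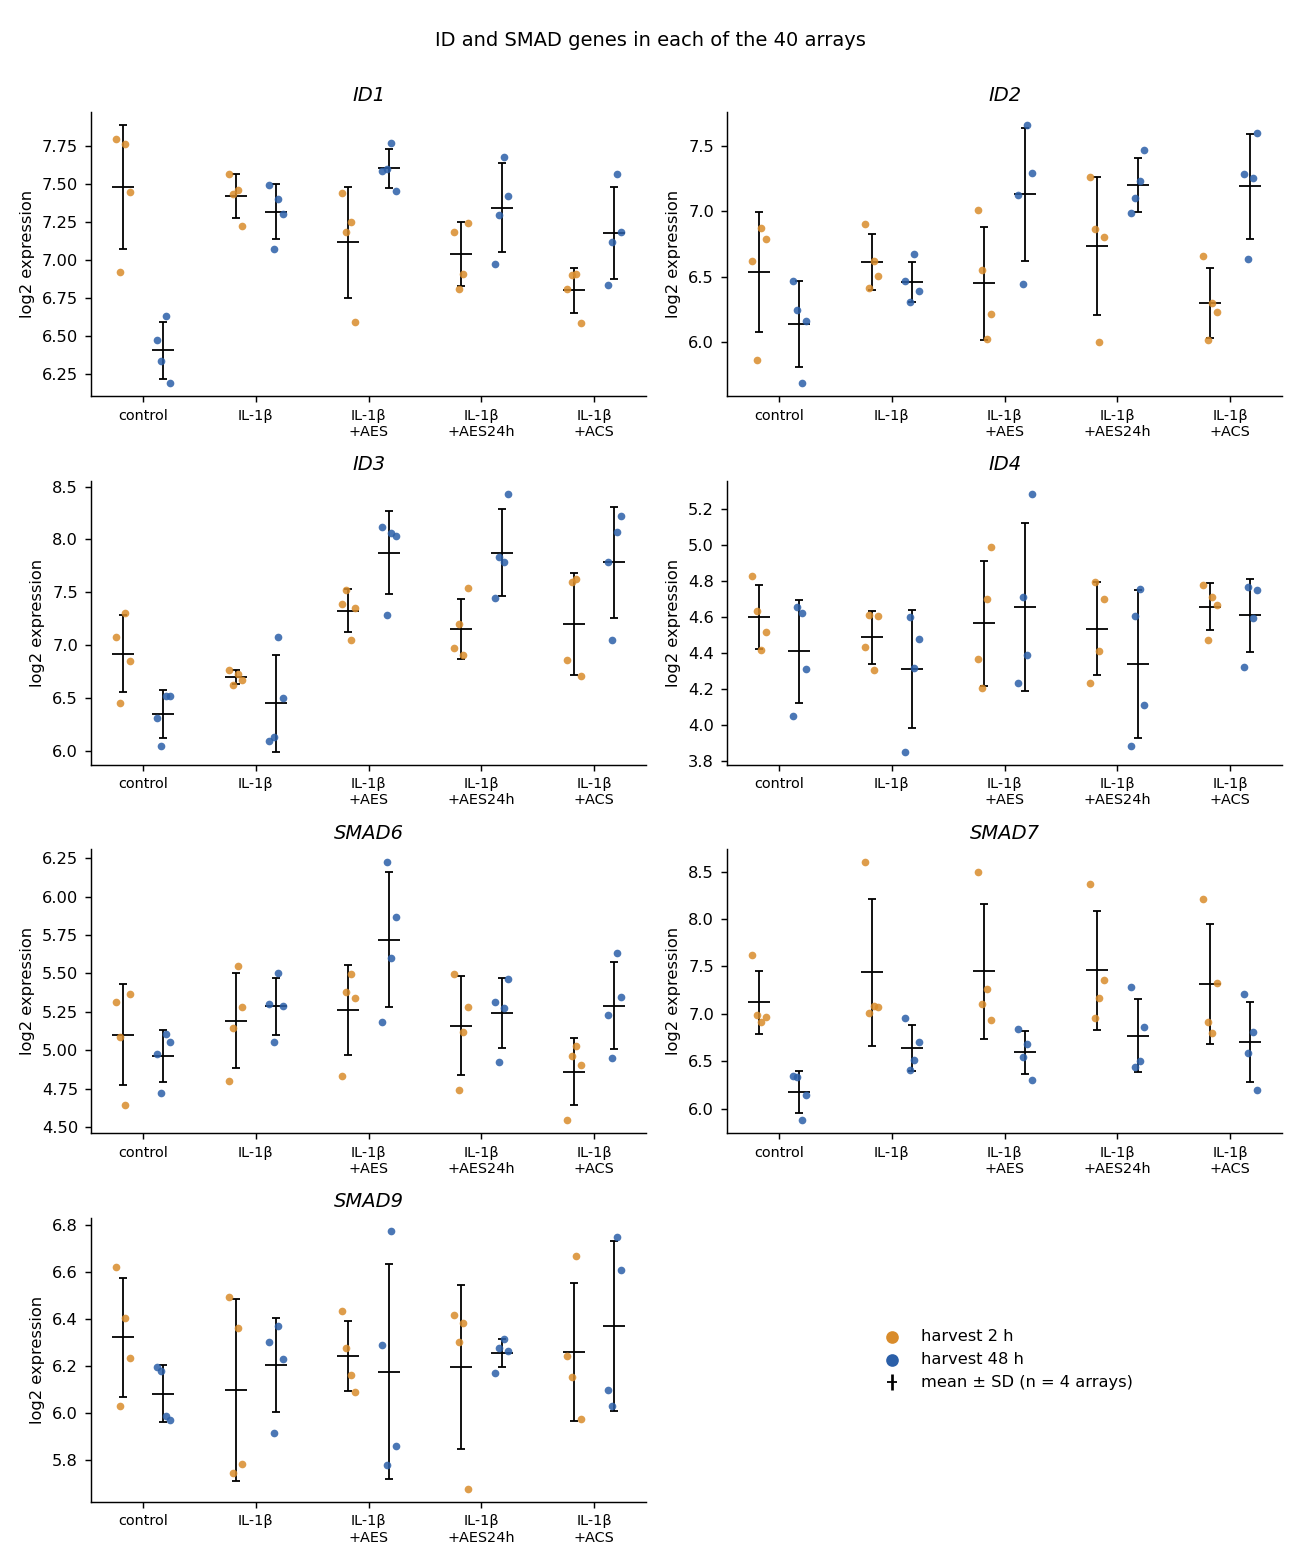
Log2 expression of the 7 genes by treatment and harvest time; each point is 1 array, 4 per group, and the black marks are the group mean and SD. At 48 h the 12 serum-treated arrays lie between 7.04 and 8.43 for ID3, while the control arrays lie between 6.04 and 6.52.

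At 48 h ID3 had the largest difference of the 7 genes between the sera and IL-1β. With IL-1β alone at 48 h, ID3 read 6.09, 6.13, 7.08 and 6.49 in the 4 arrays. AES gave 8.12, 7.29, 8.06 and 8.03. AES24h gave 7.44, 7.83, 7.78 and 8.43, and ACS gave 7.79, 7.04, 8.07 and 8.22. All 12 serum arrays lay above the IL-1β mean of 6.45, and 11 of 12 above its highest array. The exception was ACS replicate 2, at 7.04 against 7.08 for IL-1β replicate 3.

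The mean of the 3 serum groups exceeded IL-1β alone by 1.39 on the log2 scale (SE 0.20, 95% confidence interval 0.98 to 1.81, adjusted p = 2.27e-04 by limma), which is 2.63-fold. ID3 ranked 9 of 30559 probe sets by p-value in this comparison. It was the 1 gene of the 7 called beside a background of 0.733% of all probe sets called. Each serum passed on its own against IL-1β: AES by 1.42 (adjusted p = 0.00380), AES24h by 1.42 (adjusted p = 0.00520) and ACS by 1.33 (adjusted p = 0.0118). The backgrounds were 0.442%, 0.226% and 0.262% called. The calls for the single sera were lost when the spread was estimated from the compared groups alone, where adjusted p was 0.163, 0.0959 and 0.204. They were also lost for ACS without IL-1β replicate 1 or 2 or ACS replicate 3 or 4 (adjusted p 0.0509 to 0.0813), and for AES24h without its replicate 4 (0.0514). The call for the mean of the sera held in all 29 alternatives run, with values of 1.27 to 1.60.

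ID2 followed ID3 at 48 h, with a smaller difference that did not pass the threshold. It read 6.47, 6.31, 6.67 and 6.39 with IL-1β alone and, over the 12 serum arrays, ranged from 6.44 to 7.66 with a median of 7.24. Of the 12 serum arrays, 10 lay above the highest IL-1β array. The mean of the sera was 0.71 higher (SE 0.21, 95% confidence interval 0.29 to 1.13, unadjusted p = 0.0015, adjusted p = 0.113). The single sera differed from IL-1β by 0.67 (AES), 0.74 (AES24h) and 0.73 (ACS), none of them past the threshold. Over 29 alternatives the adjusted p ranged from 0.0411 to 0.706, and 3 of them gave a call: array weights (0.0411), a fixed replicate block (0.0428) and leaving out AES replicate 2. A random replicate block gave 0.0603 and leaving out AES replicates 2 and 4 gave 0.0541, neither past the threshold.

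ID1, a classical BMP target like ID3, showed no such difference that passed the threshold. Its mean at 48 h was 7.32 ± 0.18 (SD, n = 4) with IL-1β, 7.60 ± 0.13 with AES, 7.34 ± 0.29 with AES24h and 7.18 ± 0.30 with ACS. The mean of the sera was 0.06 above IL-1β (95% confidence interval -0.24 to 0.35), and the serum arrays surrounded the IL-1β arrays. Whether the serum difference of ID3 was larger than that of ID1 was not tested. ID4, SMAD6, SMAD7 and SMAD9 were 0.22, 0.13, 0.05 and 0.06 higher with the sera, none past the threshold. The interval for SMAD7 ran from -0.51 to 0.60, so a change within those bounds is not excluded at this spread.

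**Figure D2:**
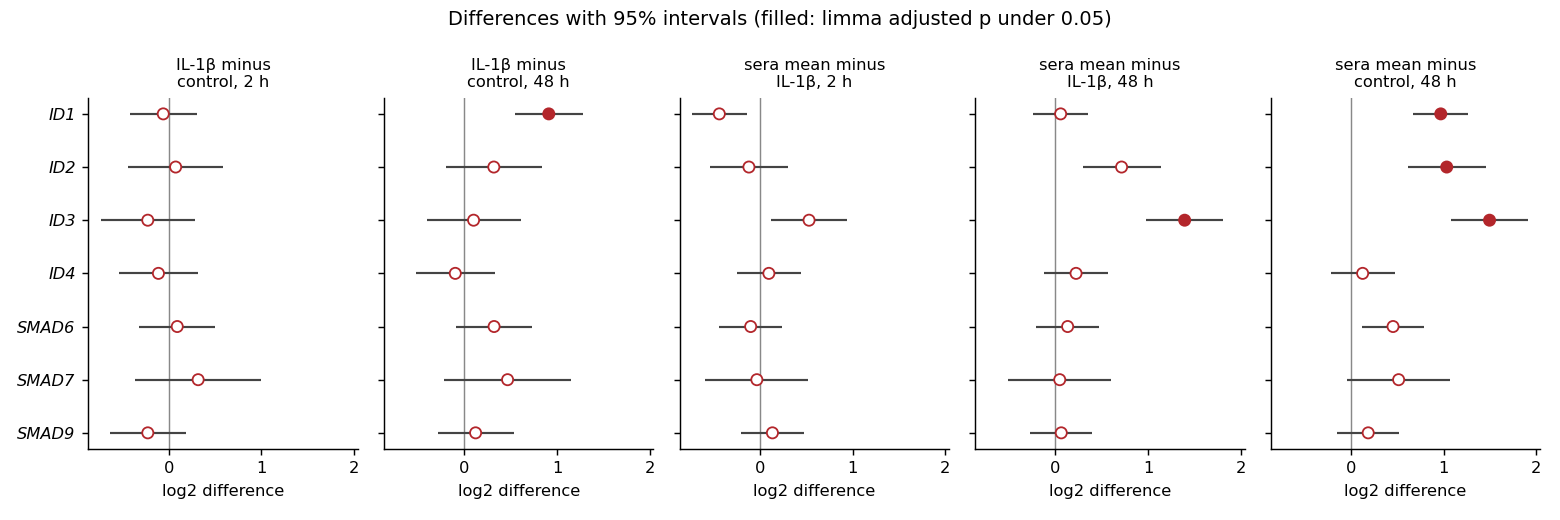
Log2 differences with 95% confidence intervals for the 7 genes for IL-1β against control and the mean of the sera against IL-1β at 2 h and 48 h, and for the sera against control at 48 h; filled points are called. At 48 h ID1 lies at 0.91 for IL-1β against control, ID3 at 1.39 for the sera against IL-1β, and ID1, ID2 and ID3 are called for the sera against control.

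At 2 h no gene of the 7 passed the threshold for the mean of the sera against IL-1β, beside 0.0458% of all probe sets called (14 of 30559). At an unadjusted p below 0.05 the counts were 2 of the 7 and 6.89% of all probe sets. For ID3, IL-1β alone read 6.77, 6.62, 6.72 and 6.67, with an SD of 0.065 beside a median group SD of 0.378 for this gene. The 12 serum arrays ranged from 6.71 to 7.63 with a median of 7.27, and 11 lay above the highest IL-1β array. The control arrays at 2 h ranged from 6.45 to 7.31, and 6 of the 12 serum arrays lay above the highest of them. The mean of the sera was 0.53 above IL-1β, which did not pass the threshold (SE 0.20, unadjusted p = 0.0136, adjusted p = 0.620). ID1 lay on the other side: 9 of the 12 serum arrays were below the lowest IL-1β array, and the difference was -0.44 (SE 0.15, unadjusted p = 0.0051, adjusted p = 0.508). It was -0.31 for AES, -0.38 for AES24h and -0.62 for ACS. Differences of the serum effect between 48 h and 2 h were 0.86 for ID3, 0.83 for ID2 and 0.49 for ID1, with adjusted p of 0.400, 0.450 and 0.590. None of the 7 genes was called in that comparison, beside 0.0491% of all probe sets called. At an unadjusted p below 0.05 there were 3 of the 7, beside 7.08%.

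No difference between the 3 sera passed the threshold in these genes. In the 6 comparisons between sera, 0 of the 7 genes passed the threshold, beside 0.00327% of probe sets called for AES24h against AES at 2 h (1 probe set) and 0% in the other 5. At an unadjusted p below 0.05 the counts were 2 of 7 for ACS against AES at 48 h (10.7% of all probe sets), 1 of 7 for AES24h against AES at 48 h (11.7%) and 0 of 7 for ACS against AES24h at 48 h (2.47%). At 2 h they were 0 of 7 in all 3 comparisons, beside 4.04%, 4.3% and 3.92%. ID1 was 0.43 lower with ACS than with AES at 48 h (log2 difference -0.43, 95% confidence interval -0.79 to -0.06, adjusted p = 0.401). SMAD6 was lower with AES24h than with AES by 0.47 (log2 difference -0.47, adjusted p = 0.370). Without AES replicates 2 and 4 that log2 difference was -0.15. ID3 differed between sera at 48 h by at most 0.09, with confidence bounds that reach 0.60 in size. Differences between sera within those bounds are thus not excluded, and the bounds are not a limit of detection.

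With IL-1β alone against control, ID1 was the 1 gene of the 7 called, and it was higher at 48 h. At 48 h ID1 read 6.47, 6.33, 6.63 and 6.19 in control and 7.49, 7.07, 7.40 and 7.30 with IL-1β. All IL-1β arrays lay above all control arrays. The difference was 0.91 (SE 0.18, 95% confidence interval 0.55 to 1.28, adjusted p = 0.00263), 1.88-fold, beside 1.26% of all probe sets called and 7.29% whose groups did not overlap. The call was lost when replicate 4 was left out of all groups (adjusted p = 0.0746). SMAD7 was the other gene of the 7 whose groups did not overlap, at 5.88 to 6.34 in control and 6.40 to 6.96 with IL-1β, but its difference of 0.47 did not pass the threshold (adjusted p = 0.700). The other 5 genes differed by -0.10 to 0.32.

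At 2 h IL-1β differed from control by -0.23 to 0.32 in the 7 genes, and 0 of 7 passed the threshold, beside 4.52% of all probe sets called by limma. At an unadjusted p below 0.05 the count was also 0 of 7, beside 14.1%. ID1 read 7.80, 6.92, 7.76 and 7.44 in control and 7.57, 7.43, 7.46 and 7.22 with IL-1β, and the groups overlapped. The difference of the IL-1β effect on ID1 between 48 h and 2 h was 0.97 (SE 0.25, unadjusted p = 0.0005, adjusted p = 0.224). It did not pass the threshold, beside 0.00327% of probe sets called in that comparison, and ID1 was the 1 gene of the 7 with an unadjusted p below 0.05, beside 5.39% of all probe sets. It was called without control replicate 2 at 2 h (adjusted p = 0.0472).

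ID1 fell in control pellets between the harvest times. The control mean was 7.48 ± 0.41 (SD, n = 4) at 2 h and 6.40 ± 0.19 at 48 h, and the groups did not overlap, as in 4.91% of all probe sets. The difference was -1.08 (SE 0.18, adjusted p = 0.0245), and ID1 was the only probe set of the 30559 called in that comparison, a background of 0.00327%. This call is fragile: adjusted p was 0.0793 with arrays centred on their medians and 0.293 with the spread from the compared groups only, and it was lost in 10 of 12 fits that left out an array or a replicate number. With IL-1β alone ID1 was 7.42 ± 0.14 at 2 h and 7.32 ± 0.18 at 48 h.

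Against control, which lacks both cytokine and serum, the serum-treated pellets had more mRNA of 3 ID genes at 48 h. ID1 was 0.97 higher (adjusted p = 1.34e-05), ID2 1.03 higher (SE 0.21, adjusted p = 7.51e-04) and ID3 1.49 higher (adjusted p = 2.33e-06). IL-1β alone was already above control by 0.91 for ID1, 0.32 for ID2 and 0.10 for ID3. The sera were above IL-1β by 0.06, 0.71 and 1.39 in the same order. For ID1 and ID3 all 12 serum arrays lay above the highest control array, and for ID2 11 of 12 did, beside 3.49% of all probe sets without overlap. These were 3 of 7 genes called, beside 6.61% of all probe sets. All 3 calls held in the 29 alternatives run. SMAD6 was 0.45 higher (unadjusted p = 0.0098, adjusted p = 0.106), and SMAD7, SMAD9 and ID4 were 0.51, 0.19 and 0.13 higher without passing. At 2 h the mean of the sera was below control for ID1 by 0.50 (log2 difference -0.50, SE 0.15, adjusted p = 0.0223), the 1 gene of the 7 called, beside 10.3% of all probe sets. That call was lost without control replicate 1, 3 or 4 (adjusted p 0.170, 0.154 and 0.0507). Among leukocyte and bone markers, the macrophage gene CD68 rose by 0.53 against control at 2 h (adjusted p = 0.0102), 1 of 6 leukocyte markers, and IBSP (bone sialoprotein) rose by 2.23 at 48 h (adjusted p = 0.00525), 1 of 5 bone markers. Their part in the ID results was not tested. These comparisons share the control or serum arrays with those above, so they are not independent of them.

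SMAD6, the BMP-selective brake, had group means between 4.86 and 5.72. It was highest with AES at 48 h, at 5.18, 6.22, 5.60 and 5.87, against 5.30, 5.05, 5.50 and 5.29 with IL-1β alone. The groups overlapped, and the difference of 0.43 did not pass the threshold (unadjusted p = 0.040, adjusted p = 0.441). Without AES replicates 2 and 4, at 6.22 and 5.87, the difference from IL-1β was 0.11. SMAD9 differed little between groups, and its largest difference from IL-1β alone among the single sera at 48 h was that of ACS, 0.17, which did not pass the threshold.

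SMAD7, the brake on both branches, was lower at 48 h than at 2 h. At 2 h the control arrays read 7.62, 6.99, 6.91 and 6.96, and at 48 h 6.34, 6.34, 5.88 and 6.14. IL-1β alone gave 8.60, 7.01, 7.08 and 7.07 at 2 h and 6.96, 6.40, 6.51 and 6.70 at 48 h. The 48 h mean was lower in all 5 treatments, by 0.61 to 0.95, and the arrays of the harvest times did not overlap in 3 of them: control, IL-1β, where 4.26% of all probe sets did not overlap, and AES, where 5.83% did not. Within single treatments no time difference of SMAD7 passed the threshold, but with a fixed replicate block that of AES did (adjusted p = 0.0107).

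Averaged over the 5 treatments, a comparison added after these values were seen, SMAD7 was lower at 48 h by 0.78 (log2 difference -0.78, SE 0.15, 95% confidence interval -1.08 to -0.47, adjusted p = 6.74e-04), a level 0.583 of that at 2 h. It was the 1 gene of the 7 called, beside 7.86% of all probe sets. Since the comparison was chosen for this pattern, its p-value is a description. ID2 was 0.30 higher at 48 h on the same average (adjusted p = 0.111). For ID3 and ID2 the sign of the mean time difference varied by treatment, which is only a description. ID3 was lower at 48 h by 0.57 in control and by 0.25 with IL-1β (log2 differences -0.57 and -0.25). It was higher by 0.55, 0.72 and 0.59 with AES, AES24h and ACS. ID2 differed by -0.40, -0.15, 0.68, 0.47 and 0.89 in the same order. None of these 10 differences passed the threshold, but with a replicate block that of ID2 with ACS did (adjusted p = 0.0326 with a fixed block and 0.0451 with a random block). For the sera, where 0 of 7 genes were called, the backgrounds were 1.65% for AES, 1.12% for AES24h and 0.916% for ACS, and 5, 2 and 4 of 7 genes had an unadjusted p below 0.05, beside 14.4%, 11.4% and 11.9%. For IL-1β alone 0 of 7 were called, beside 0.00654%, and 1 of 7 had an unadjusted p below 0.05, beside 6.98%.

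**Figure D3:**
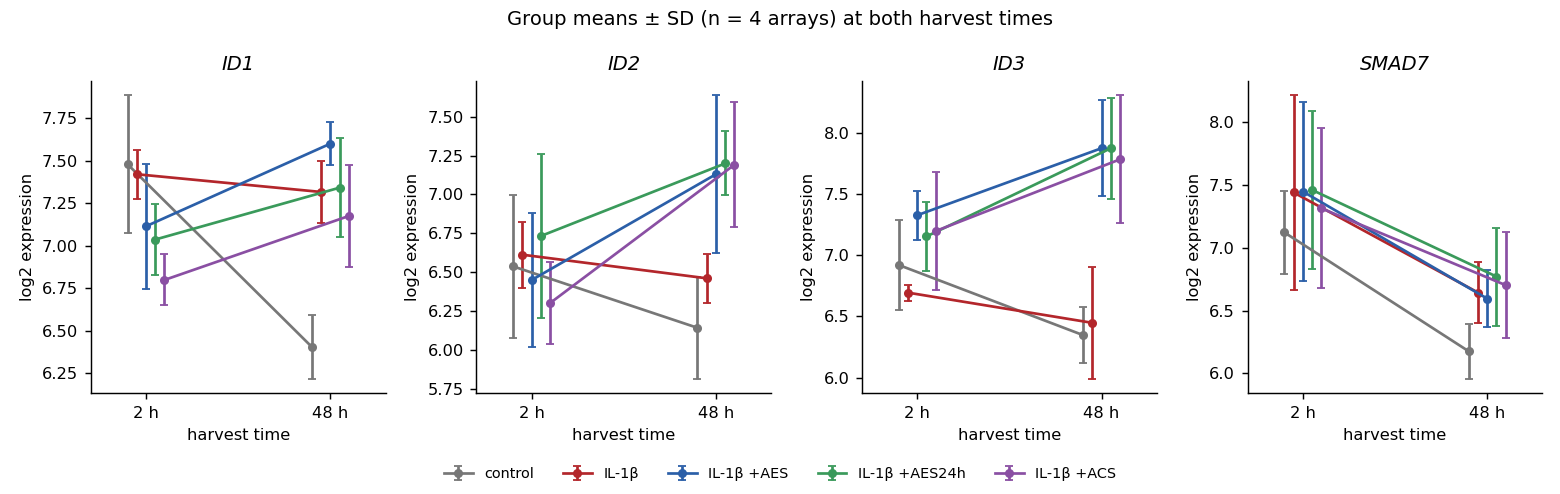
Group means of ID1, ID2, ID3 and SMAD7 at 2 h and 48 h, on the log2 scale, joined by treatment, with the SD of 4 arrays as error bars. The mean of SMAD7 is lower at 48 h in all 5 treatments, ID1 in control fell by 1.08, and the mean of ID3 is higher at 48 h than at 2 h with each of the 3 sera.

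SMAD7 also differed by replicate number. The array numbered 1 in the labels was the highest of its group in all 10 groups. Its excess over the mean of the other 3 arrays was 0.66 in control at 2 h, 1.55 with IL-1β, 1.40 with AES, 1.21 with AES24h and 1.19 with ACS at 2 h, and 0.22 to 0.68 at 48 h. None of the other 6 genes had replicate 1 highest in more than 5 of 10 groups. Without replicate 1 in every group, the mean time difference of SMAD7 was -0.59 (adjusted p = 1.47e-05). That comparison was added after values were seen, so this p-value too is a description. The labels do not say what the replicates have in common, and the source of the excess was not tested.

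**Figure D4:**
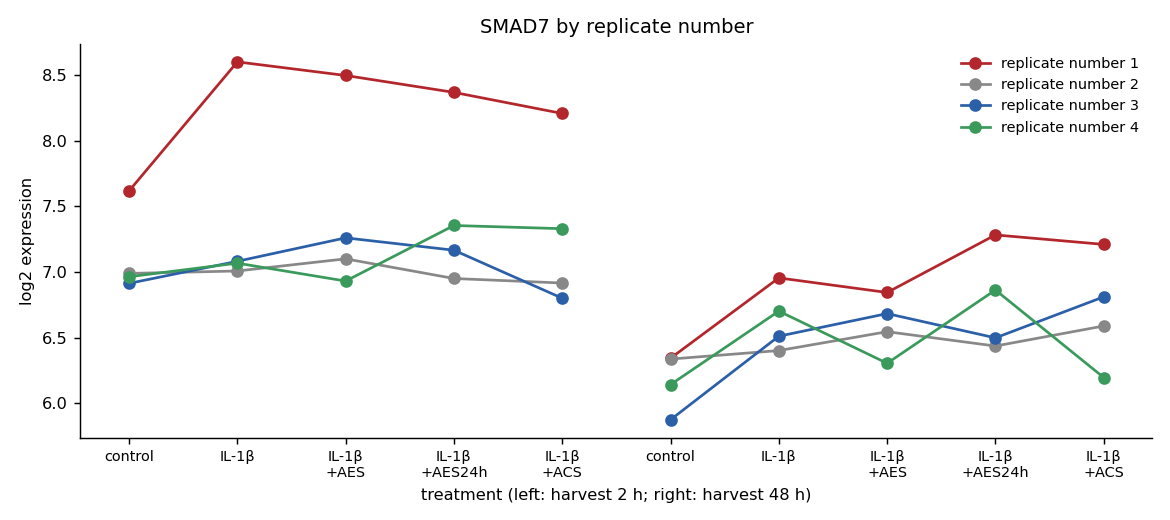
Log2 level of SMAD7 in each of the 40 arrays by group, 1 coloured line per replicate number, with the 2 h groups on the left and the 48 h groups on the right. Replicate 1 is the highest array in all 10 groups, with the widest gap, 1.55, in the IL-1β group at 2 h.

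Other genes of the pathway were counted in lists by role. The lists were chosen with earlier results of these data known, so their counts beside the background are only a description. The sera raised few of these genes against IL-1β at 48 h, where 0.733% of all probe sets were called and their median difference was -0.01. Of 12 BMP and GDF ligand genes 2 rose: BMP7, a ligand with a known anabolic effect on cartilage, by 0.55 (adjusted p = 0.0114), and GDF10 by 1.04 (adjusted p = 0.00670). The list's median was 0.06. BMP2 was 1.02 higher and did not pass (adjusted p = 0.209). Of 13 TGF-β and activin ligand genes 1 rose, GDF11 by 0.60. Of 13 secreted BMP antagonists 1 rose, GREM1, whose product gremlin binds BMPs and keeps them from their receptors, by 1.09 (adjusted p = 0.0214). None of 16 receptors, 5 signal-carrying SMADs and 14 other brakes on SMAD signalling passed, with 3, 1 and 2 of them at an unadjusted p below 0.05, beside 8.27% of all probe sets.

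Of 15 other BMP target genes 0 passed with the sera at 48 h, and the median was -0.02. The 3 with an unadjusted p below 0.05, beside 8.27% of all probe sets, were SNAI1 at 0.57, RUNX2 at 0.54 and SNAI2 at -0.50, with adjusted p of 0.0665, 0.159 and 0.125. Of 16 TGF-β target genes 3 rose and 1 fell, beside 0.733% of all probe sets called. That list too was chosen with earlier results known, so its count is only a description. The risers were IL11, a cytokine of the interleukin-6 family, by 2.84, NOX4, an oxidase, by 1.06, and JUNB by 0.50. LOXL2, which cross-links collagen, fell by 0.65. Of 11 bHLH factors and relatives, the class that ID proteins bind or resemble, 2 fell: SCX, a tendon and ligament factor, by 1.07, and BHLHE41, a repressor of the circadian clock, by 0.84. None of 4 measured CDK inhibitor genes passed, and 0 had an unadjusted p below 0.05. Chondrocyte markers were counted in the same comparison, with 2 of 10 called lower and a median of -0.31. Their summed log2 level was 12.77 to 13.31 with IL-1β, 12.32 to 13.18 with AES, 12.42 to 13.08 with AES24h and 12.45 to 13.12 with ACS. Of 5 bone markers 0 passed, 1 had an unadjusted p below 0.05 (IBSP at 1.29, adjusted p = 0.438), and the median was 0.14. Their summed log2 level was 10.21 to 10.33 with IL-1β, 10.04 to 10.61 with AES, 10.42 to 11.47 with AES24h and 10.77 to 11.23 with ACS, so the AES24h and ACS arrays lay above the IL-1β arrays. The part of these marker lists in the ID3 difference was not tested.

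With IL-1β against control at 48 h, when ID1 was higher, 0 of 15 other BMP targets passed and 4 had an unadjusted p below 0.05, beside 9.83% of all probe sets. The ligand lists and the signal-carrying SMADs held 0 called genes, with 1 of 12, 2 of 13 and 0 of 5 at an unadjusted p below 0.05. CHRDL2, a chordin-like BMP antagonist, fell by 1.09, and the receptor genes TGFBR3 and TGFBR2 fell by 1.00 and 0.68. In that comparison 1.26% of all probe sets were called. Of 16 TGF-β targets 1 passed, POSTN, the matrix protein periostin, which fell by 3.32. Chondrocyte markers fell in the same comparison, with a median of -1.30. At 2 h, when none of the 7 genes was called, IL-1β raised INHBA, TGFBR1, TOB1 and HES1 by 1.12, 0.65, 0.77 and 0.81. It lowered LTBP1, CHRDL2, RGMA and HEY1 (log2 differences -1.25, -1.39, -1.08 and -1.13). Of 16 TGF-β targets 5 fell at 2 h, beside 4.52% of all probe sets called. Among the 5 were LOXL2, POSTN and TGFBI, lower by 1.17, 3.25 and 1.45.

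**Figure D5:**
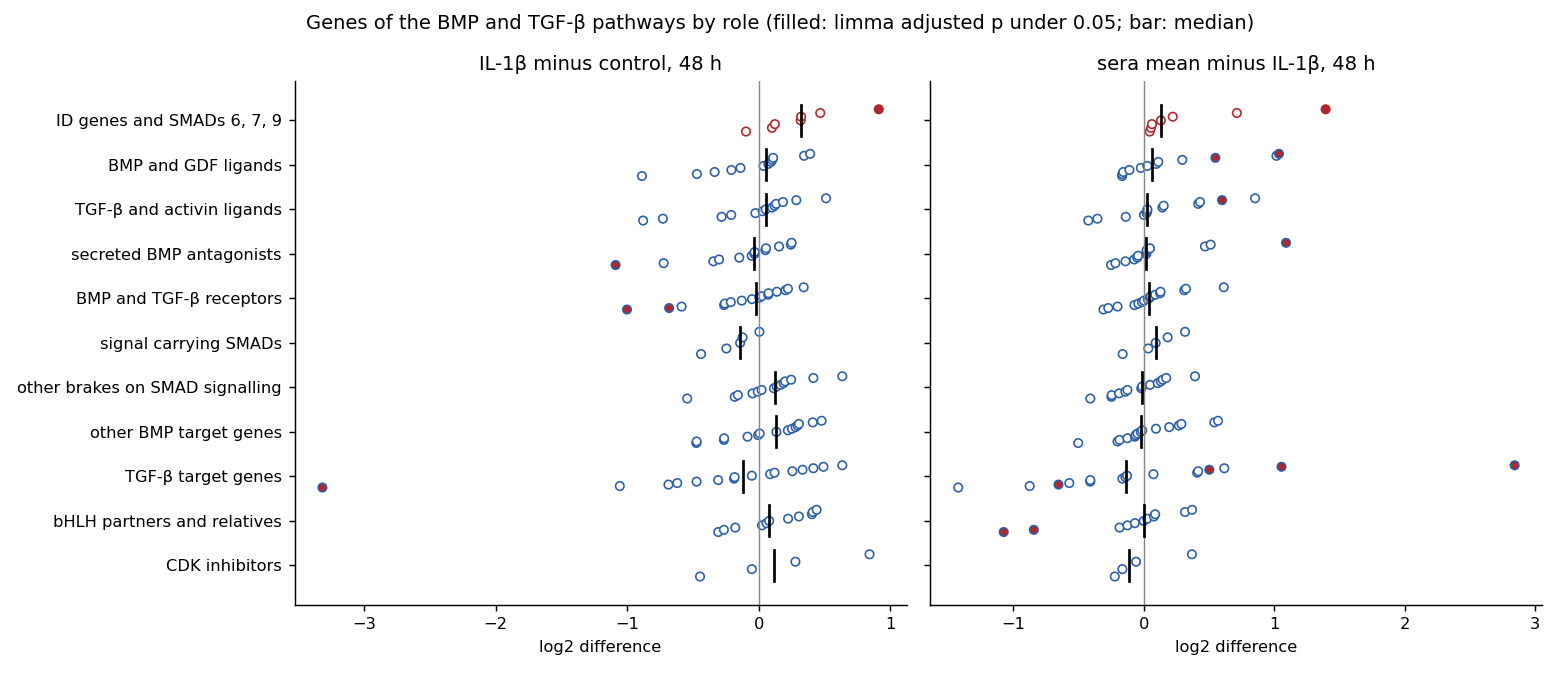
Log2 differences of the 7 genes (top row) and of the genes in each pathway list for IL-1β against control and for the sera against IL-1β at 48 h, 1 point per gene, with called genes filled and the median as a bar. The list of 15 other BMP targets holds no called gene in either comparison, while IL11 among the TGF-β targets lies at 2.84.

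Immediate early genes are switched on within minutes of a stimulus without new protein, and some ID and SMAD7 responses are as fast. At 2 h the sera raised 2 of 25 of them, beside 0.0458% of all probe sets called. These were the nuclear receptor genes NR4A1, by 1.13, and NR4A2, by 2.54. A further 12 had an unadjusted p below 0.05, all higher, beside 6.89% of all probe sets at that limit. The list's median was 0.40 against 0.02 for all probe sets. On the average over the 5 treatments, the comparison added after values were seen, 19 of 25 fell from 2 h to 48 h, with a median of -0.70. In that comparison 7.86% of all probe sets were called. It spans the same interval over which SMAD7 was lower, and a link between these genes and SMAD7 was not tested. EGR1 and NR4A1 fell by 1.67 and 0.84. In the same comparison SKIL and PMEPA1, 2 brakes on TGF-β signalling, fell by 0.58 and 0.45, and SMAD1, SMAD2 and SMAD3 rose by 0.36, 0.27 and 0.26.

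Across the 10 group means ID2 and ID3 ran together (Pearson r = 0.84), and within groups, over the 40 arrays with group means removed, their r was 0.49. ID1 and ID3 had r = 0.41 over group means and 0.40 within groups. SMAD7 had an r between -0.21 and 0.38 with the other 6 genes over group means. These coefficients describe 10 points that share treatments and times.

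By the same measure, the genes most like each of the 7 over the 10 group means were sought among 11850 other genes in the upper 60% by mean level. ID3 was nearest to COL4A1, a basement membrane collagen (r = 0.96), IL11 (0.95) and RIMKLB (0.94). ID2 was nearest to ANTXR2 (0.96), B4GALT6 (0.95) and CYP26B1, which degrades retinoic acid (0.94). ID1 was nearest to OR9S7 (0.94), SORL1 (0.92) and GPR3 (0.90). SMAD6 was nearest to ATOH8 (0.96), also a BMP target, then FZD10 (0.93) and MACROH2A2 (0.91). SMAD7 was nearest to ENC1 (0.96), HNRNPH1 (0.96) and PACRGL (0.95). ID4 and SMAD9, whose group means hardly varied, had weaker matches: OR10G1G (0.88), RAB26 and CABLES1 for ID4, and SNRPA1 (0.89), GNG10 and SELENOK for SMAD9. Without the filter on mean level the nearest gene changed for ID3, ID4, SMAD6 and SMAD9. For SMAD6, KCNH3 (0.97) and SST (0.96) then ranked before ATOH8.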

How the data were processed

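The authors deposited 1 table of log2 expression values for 30559 probe sets and 40 arrays. The submitters' processing notes name RMA, limma and Affymetrix's Expression Console, without versions or settings in the sources used here. RMA corrects background, summarises probes and makes the arrays' distributions alike, which would mask a change common to most transcripts. Per the labels' protocols, 1 pellet of each group was homogenised for RNA. Of the probe sets 16789 were listed with 1 gene symbol, 343 with several and 13427 with none, and 0 columns belonged to no sample. Each of the 7 genes had 1 probe set. The number of arrays limits the precision.

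Groups and replicate numbers came from the sample titles. Differences were tested with limma 3.58.1 in R 4.3.3, as 10 group means over all 40 arrays with no replicate term (30 residual and 4.62 prior degrees of freedom) and an intensity trend. Tests were two-sided, adjusted by Benjamini-Hochberg over the 30559 probe sets and called below 0.05. There were 25 comparisons by design, and 1 was added after values were seen, the mean time difference over treatments. The method was tested on simulated data whose noise was independent between arrays. That test thus cannot show how deviations shared by same-numbered arrays affect the calls. Genes were named by rule: all 7, up to 3 called genes per list and direction, the 3 most alike genes, and marker checks. BMP2, SNAI1, RUNX2, SNAI2 and IBSP, where not called, were named after their values were seen. The 7 genes and the lists were chosen with earlier results of these data known. Alternatives were a replicate block, other scaling, array weights, no trend, a filter on low values, and leaving out arrays.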

Additional observations from a re-analysis of the deposited data

Results flagged for a closer look

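In each group of 4 arrays, the highest or lowest was set apart when its gap to the nearest array, over the group's range, passed Dixon's 95% critical value. Chance flags about 1 in 20 groups, and 4 of the 70 groups of the 7 genes were flagged. ID3 with AES at 48 h had its lowest array, replicate 2, at 7.29 against 8.03 to 8.12 in the other 3, and that array still lay above the IL-1β arrays of that time. SMAD7 had its highest array, replicate 1, at 7.62 in control at 2 h against 6.91 to 6.99, and at 8.60 with IL-1β at 2 h against 7.01 to 7.08. SMAD9 with AES24h at 2 h had its lowest array, replicate 4, at 5.68 against 6.30 to 6.42.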

How the results depend on the processing

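For the 7 genes 1523 values were recomputed under alternatives for 59 results, of which 1466 kept direction and side of the threshold, 34 lost a call, 11 gained one and 12 turned sign. No paired design is stated. Same-numbered arrays deviated together in part: r was 0.0744 to 0.521 among pairs of replicate 1, with a median of 0.227. The medians for replicates 2, 3 and 4 were lower and alike, at 0.0803, 0.0768 and 0.0864, and those of replicate 4 ranged from -0.131 to 0.276. Of the 40 arrays, 38 correlated best with an array of their own number. With a fixed replicate block 2 of 7 genes passed for the sera against IL-1β at 48 h, and 1 of 7 each for AES and ACS between times (SMAD7, adjusted p = 0.0107, and ID2, 0.0326). SMAD7 then also passed for the sera against control at 48 h (0.0406). A random replicate block (correlation 0.0791) gave 1 for ACS between times (ID2, 0.0451), and the blocks lost no call. Array weights gave 2 for the sera against IL-1β at 48 h. With arrays centred on their medians, 0 of 7 passed for control between times. With the spread from the compared groups only, 0 of 7 passed for each serum against IL-1β at 48 h, the sera against control at 2 h (ID1, 0.0813) and control between times. Leaving out arrays gave 0 to 1 of 7 for these, for IL-1β against control at 48 h, ACS between times and the difference of the IL-1β effect, and 1 to 2 for the sera against IL-1β at 48 h and for the time average. Single-serum calls of ID3 were also lost without replicate number 1 or 4 for AES (0.0823 and 0.0912), 4 for AES24h (0.265), and 1, 3 or 4 for ACS (0.126, 0.0612 and 0.258). Signs that turned were those of uncalled values when an array or number was left out: -0.11 to 0.22 for ID3 and -0.22 to 0.056 for ID4 (IL-1β against control, 48 h), and -0.025 to 0.20 for ID1, -0.034 to 0.15 for SMAD7 and -0.034 to 0.12 for SMAD9 (sera against IL-1β, 48 h). Counts over all probe sets ranged from 687 to 2260 (IL-1β against control, 2 h, 1380 as reported), 130 to 757 (48 h, 386), 0 to 42 (sera against IL-1β, 2 h, 14), 25 to 518 (48 h, 224), 1827 to 4172 (sera against control, 2 h, 3150), 1015 to 3098 (48 h, 2021) and 1086 to 3341 (time average, 2403). The cause was not tested. Other probe sets of the 7 genes were not listed, so that alternative could not be run.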
